A study of Homo sapiens with 6 samples.

Results

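Transcripts that carry no annotated gene were described here in HCT116 cells, an established human colon cancer line. They were chosen as every transcript of the deposited table with a dash in place of a gene, and all of their identifiers start with MERGE. They are taken to be transcripts assembled from reads, from these identifiers alone, since the sources used here do not say how they arose. There were 21225 of them among 172678 transcripts, or 12.3% of the table, and the other 151453 transcripts belong to 40173 annotated genes. The rule used no count, though it was set with earlier results of these data known. RNA was sequenced from HCT116-MOCK cells, which received a control lentivirus and are labelled wild type, and from HCT116-CYGB cells, labelled CYGB overexpression, with 3 biological replicates in each group. The CYGB lentivirus carried the coding region of cytoglobin, a globin that binds oxygen, fused with a FLAG tag. Both groups were selected with puromycin and were stable transduced populations grown in RPMI 1640 medium with serum, so the control cells also carry a virus and a resistance gene. Whether a difference comes from cytoglobin or from the way each population arose cannot be told apart here.

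Transcript assembly joins spliced reads into models of RNA molecules, and models that match no annotated transcript are kept under a new name. Such models can be unlisted isoforms of a known gene, long noncoding RNA, RNA with a retained intron, or pieces of longer transcripts. Tumour lines are a common source of them, since they use promoters and splice sites that a reference annotation does not list. The table gives these transcripts no chromosome, start, end, length or sequence, so which of these kinds each belongs to is not known here. Without a length, levels are given in CPM, counts per 1000000 counts of the normalised library, which measure reads and not molecules.

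Library totals ranged from 58138393 to 66035266 counts. Summed over its transcripts, CYGB (ENSG00000161544) stood at 10, 28 and 34 counts (MOCK) against 34935, 27681 and 32333 (CYGB), so the labels held. At 10 CPM or more in every library stood 7 of 10 colon epithelial markers, led by KRT8 and KRT19, while LGALS4 reached at most 0.217 CPM. Of 12 fibroblast, leukocyte and endothelial markers, 9 stayed under 1 CPM in every library. The exceptions were COL1A1 at 36.1 to 43.7 CPM, CD68 at 8.06 to 20.5 CPM and VWF at 0.350 to 1.53 CPM. In bulk RNA, fewer cells with a transcript and less of it per cell cannot be told apart.

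Each identifier was read as a locus number followed by a transcript number. The 21225 transcripts fell into 9332 loci, of which 4976 held 1 transcript and 4356 held several. There were 1006 loci with 5 or more transcripts and 159 with 10 or more. The largest were MERGE.9300 with 42 transcripts, MERGE.10840 with 38 and MERGE.1839 with 36. Locus numbers ran from 1 to 30932, and 30.2% of these numbers had a transcript without a gene. In 6117 loci (65.5%) the transcript numbers had gaps, with 36990 numbers missing of 58215, and what the missing numbers stand for is not given in the sources used here. The number of transcripts of a locus and the sum over it therefore cover only its listed transcripts without a gene.

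The transcripts without a gene were mostly of low to middle abundance. Their median level over the 6 libraries was 1.98 CPM, with quartiles of 0.343 and 7.47 CPM. Transcripts with a gene had a median of 0.125 CPM. A mean of at least 1 CPM was reached by 61.6% of the transcripts without a gene and by 22.8% of those with one, and at least 10 CPM by 20.0% and 7.42%. At the top the order turned, with 4 transcripts without a gene (0.0188%) and 45 transcripts with one (0.0297%) at 1000 CPM or more. The plot of level distributions shows the shift along most of its range.

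**Figure D1:**
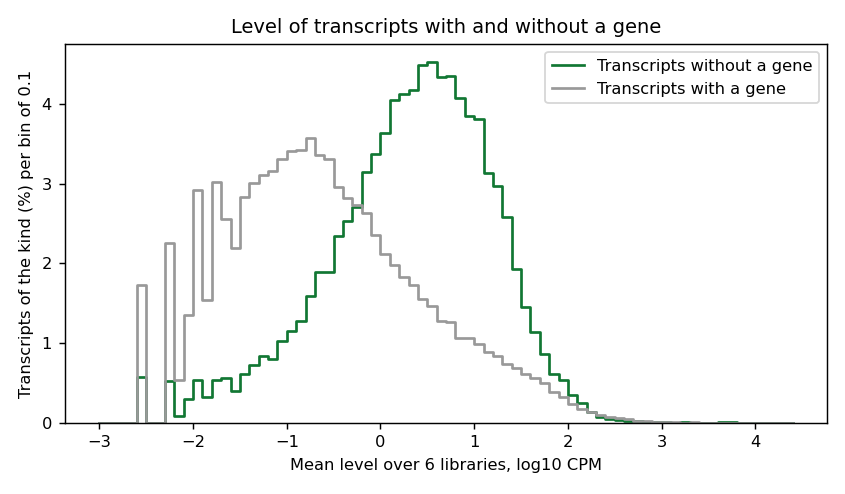
Share of transcripts (y axis, percent of the kind per bin of 0.1) by mean level over 6 libraries (x axis, log10 CPM), for transcripts without a gene (green) and with a gene (grey). The green curve lies to the right, with medians of 1.98 and 0.125 CPM, and transcripts at 0 in all libraries are not drawn.

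Between 15564 and 16008 of the 21225 transcripts had at least 1 count in a library, or 73.3% to 75.4%. For transcripts with a gene this share was 64.0% to 66.4%, lower in 6 of 6 libraries, by a mean of 8.99 percentage points (SD 0.187, n = 6). Among transcripts with a count, the median count was 167.5 to 179 without a gene and 20 to 22 with one, a mean difference of 152 counts (SD 4.45, n = 6). Both differences had p = 0.031 in an exact two-sided sign-flip permutation test over libraries, the smallest p that 6 libraries allow, and the same value after adjustment over 3 tests. Counts were seen in all 6 libraries for 11633 transcripts (54.8%), in 1 to 5 libraries for 7765 (36.6%) and in none for 1827 (8.61%). Which reads the transcripts were assembled from is not given in the sources used here, so how far being assembled itself selects for reads was not tested.

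The share of all counts held by transcripts without a gene was nearly the same in both groups. It was 18.8%, 18.8% and 19.5% (MOCK) against 18.6%, 19.3% and 18.9% (CYGB). The ranges overlapped, and the means were 19.0% ± 0.400 and 19.0% ± 0.353 (SD, n = 3 each). The difference of -0.0523 percentage points had p = 0.8 in an exact two-sided permutation test, where 3 against 3 libraries cannot go below 0.1. The number of transcripts with a count was 15780 ± 204 in MOCK and 15876 ± 139 in CYGB-overexpressing cells (SD, n = 3 each, exact permutation p = 0.6). The sum of all these transcripts thus gave no detectable difference, and each of 6 such library summaries had an adjusted p of 0.9.

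The most abundant transcript of a library took 2.79% to 4.09% of the counts without a gene, the first 10 took 9.33% to 10.5%, and the first 100 took 21.8% to 23.6%. 50% of these counts lay in 719 to 782 transcripts, or 4.55% to 4.96% of those with a count. The corresponding number for transcripts with a gene was 1147 to 1272, only 1.14% to 1.29% of those with a count. The share of the first 10 was higher without a gene in 6 of 6 libraries, by 1.31 percentage points (SD 0.583, exact sign-flip permutation p = 0.031, the smallest p possible). The first 10 are a larger part of 21225 transcripts than of 151453, so this test does not compare concentration at equal set size. Between groups the share of the first 10 without a gene was 9.83% ± 0.581 in MOCK and 9.48% ± 0.0503 in CYGB (SD, n = 3 each, exact permutation p = 0.4).

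**Figure D2:**
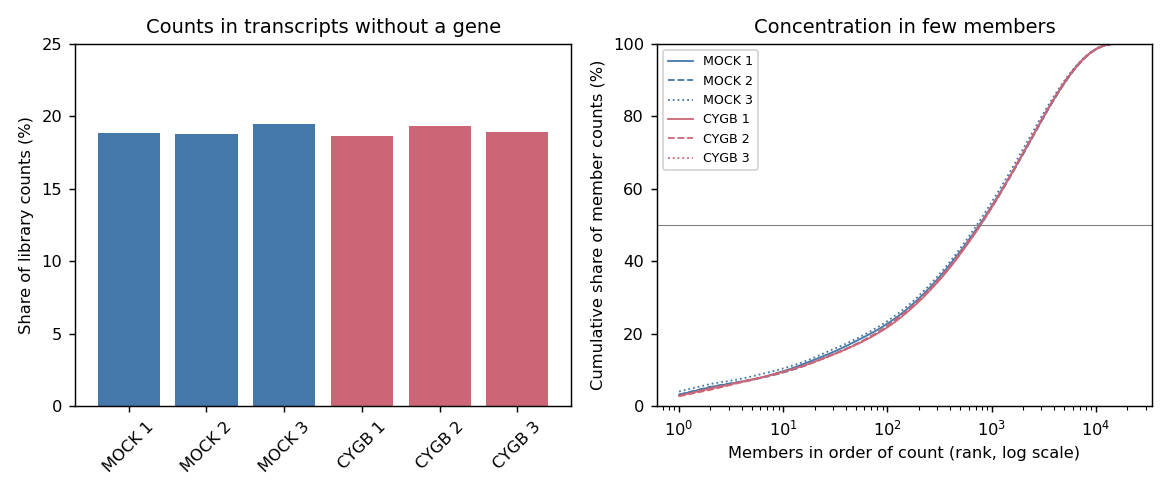
Left, share of library counts (y axis, percent) in transcripts without a gene for each of the 6 libraries (x axis; MOCK blue, CYGB red). Right, cumulative share of their counts (y axis, percent) by rank of abundance (x axis, log scale), where the 6 curves nearly coincide and cross the grey line at 50% between ranks 719 and 782.

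The 6 most abundant transcripts without a gene were present at high counts in every library. MERGE.29891.5, the first of them, had 350597, 398157 and 513219 counts (MOCK) against 336107, 337902 and 348732 (CYGB). It stood at 6804 ± 1280 CPM (MOCK) against 5521 ± 32.2 CPM (CYGB) (SD, n = 3 each), without overlap, and took 3.18% of all counts without a gene. Its log2 fold change, here and throughout CYGB over MOCK, was -0.30 (SE, the standard error, 0.13, edgeR quasi-likelihood test, adjusted p = 1.00). The highest value, MOCK replicate 3, was also the library with the largest share of counts without a gene. MERGE.14580.1 had 229832, 260398 and 262812 counts (MOCK) against 224039, 213107 and 302185 (CYGB), and its groups overlapped. MERGE.22868.3 had the smallest SE of the 6, with 1665 ± 59.3 CPM in MOCK and 1670 ± 43.6 CPM in CYGB (SD, n = 3 each). MERGE.4539.14 averaged 1070 ± 110 CPM (MOCK) against 1321 ± 284 CPM (CYGB) (SD, n = 3 each), and its highest library was CYGB replicate 3 with 103855 counts.

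MERGE.7092.9 and MERGE.7092.7, the fifth and sixth, share a locus. MERGE.7092.9 had 42022, 59541 and 43292 counts (MOCK) against 55066, 69550 and 66136 (CYGB). MERGE.7092.7 had 62338, 48642 and 86296 counts (MOCK) against 48636, 40582 and 47560 (CYGB). Their fitted log2 fold changes had opposite signs, 0.40 (SE 0.15) and -0.53 (SE 0.23), and neither passed the threshold given below. The sum of the 4 transcripts of this locus ranged only from 114941 to 143508 counts over the 6 libraries, with a log2 fold change of -0.09. In edgeR's quasi-likelihood test, none of the 6 most abundant transcripts reached an adjusted p under 0.05, and MERGE.7092.9 alone had an unadjusted p under 0.05 (0.0366).

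Single transcripts without a gene varied widely between libraries of the same group. For those at a mean of at least 10 CPM (4249 transcripts), the median within-group SD of log2(CPM + 0.5), with 0.5 as pseudocount, was 0.73, with quartiles of 0.33 and 1.88. For transcripts with a gene at the same level (11236 transcripts), the median was 0.33. The difference held in each level class. Between 10 and 30 CPM the medians were 0.77 and 0.44, between 30 and 100 CPM they were 0.67 and 0.25, and at 300 CPM and over they were 0.25 and 0.15. In the class from 10 to 30 CPM, the median distance of a library from the mean of the other 2 of its group was larger without a gene in 6 of 6 libraries. The mean excess was 0.23 on the log2 scale (SD 0.02, exact two-sided sign-flip permutation p = 0.031, the smallest p possible). Libraries of a group enter each other's distances, so these 6 values are not fully independent.

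**Figure D3:**
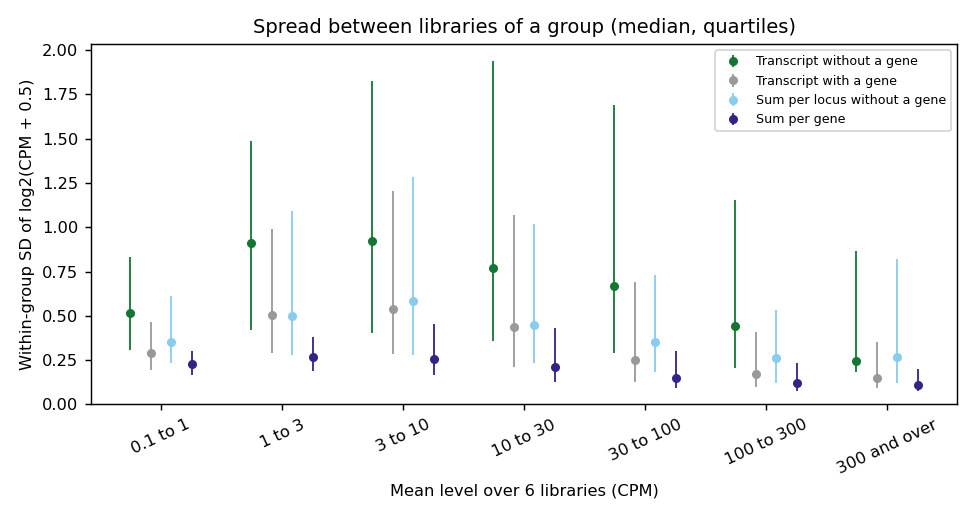
Within-group SD of log2(CPM + 0.5) (y axis) by mean level (x axis, CPM classes), as medians (points) and quartiles (bars) for transcripts without a gene, transcripts with a gene, sums per locus without a gene and sums per gene. The green points of transcripts without a gene lie above the grey points of transcripts with a gene in every class, and sums lie lower than transcripts except for loci at 300 CPM and over.

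Many transcripts were listed at 0 in 1 library and well expressed in a replicate of the same group. Of the 7103 transcripts without a gene that reached 10 CPM in some library, 1716 (24.2%) were at 0 counts in 1 library and at 10 CPM or more in another of its group. This happened within MOCK for 1043 of them, within CYGB for 1005 and within both for 332. Among 15417 transcripts with a gene, 1400 (9.08%) did so. No single library carried the pattern. The number of transcripts without a gene at 0 in 1 library while the other 2 of its group had at least 10 CPM ranged from 67 in CYGB replicate 3 to 101 in MOCK replicate 1. The reverse, at least 10 CPM in 1 library and 0 in the other 2, ranged from 118 in CYGB replicate 1 to 166 in CYGB replicate 2.

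The 4 widest ranges within a group show the scale of this switching. MERGE.6442.4 had 64577 counts in MOCK replicate 1 and 0 in the other 5 libraries. MERGE.6442.3, of the same locus, had 58119 counts in CYGB replicate 2 and 0 elsewhere. A further transcript of that locus, MERGE.6442.1, had 25162 and 24995 counts in CYGB replicates 1 and 3 and 0 in the rest. Summed over its 9 transcripts, the locus had 67454, 3275 and 0 counts (MOCK) against 28925, 60188 and 28588 (CYGB), so the sum did not even out either. MERGE.19700.2 had 55085 counts in MOCK replicate 1 and 0 elsewhere, while its neighbour MERGE.19700.1 had 27972 counts in CYGB replicate 2 and at most 604 in any other library. MERGE.10481.1, the only listed transcript without a gene of its locus, had 9171, 0 and 1320 counts (MOCK) against 120230, 0 and 383 (CYGB). Its fitted log2 fold change was 3.47 (SE 3.75), and it was -4.29 without CYGB replicate 1.

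Across the 14889 transcripts without a gene that were tested, log2(CPM + 0.5) correlated between libraries of a group at Pearson's r = 0.659 to 0.696 and between groups at r = 0.666 to 0.700. For the 66609 tested transcripts with a gene, r was 0.868 to 0.882 within groups and 0.867 to 0.885 between groups. These values are across transcripts, which share their library, depth and loci and are not replicates. For both kinds, the ranges within and between groups overlapped.

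Spread was larger in loci with more transcripts. At 10 CPM or more, the median within-group SD was 0.42 for transcripts alone in their locus, 0.72 in loci of 2 to 4, 0.94 in loci of 5 to 9 and 1.11 in loci of 10 and more. The share listed at 0 in 1 library and at 10 CPM in a replicate was 15.7%, 21.9%, 30.5% and 35.6% in the same order. Loci of 2 to 4 transcripts held 51.4% of the counts without a gene, single transcripts 20.9%, loci of 5 to 9 20.4% and larger loci 7.27%. These are descriptions without a test.

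Sums over a locus varied less than single transcripts. Compared were 2085 loci with several transcripts, counts in every library, a mean of at least 10 CPM and a transcript at that level. In 1767 (84.7%) the sum had a lower SD than the median of its transcripts at 10 CPM or more. Loci without counts in some library were left out of this comparison. The median SD was 0.75 for transcripts and 0.36 for sums. For 7433 genes chosen in the same way the share was 82.7%, and the medians were 0.30 and 0.16. Of the locus sums that reached 10 CPM in a library (4482), 311 (6.94%) were still at 0 in a replicate, against 21 of 10174 gene sums (0.206%).

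The transcript with the highest count in a locus often differed between libraries. Loci with several transcripts, counts in every library and a mean of at least 10 CPM numbered 2599. The same transcript led in all MOCK libraries in 1414 (54.4%), in all CYGB libraries in 1385 (53.3%) and in all 6 in 1008 (38.8%). Of 8786 annotated genes under the same conditions, 5631 (64.1%) had the same leader in all 6. With exactly 2 transcripts in each, the shares were 436 of 766 loci (56.9%) and 509 of 567 genes (89.8%). A change of leader between the groups, with 1 leader in all MOCK libraries and another in all CYGB libraries, occurred in 14 loci (0.539%) and in 43 genes (0.489%).

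MERGE.9300, MERGE.10840 and MERGE.1839 were the loci with most transcripts. In MERGE.9300 the leading transcript over all libraries, MERGE.9300.3, had 0, 7392 and 5286 counts (MOCK) against 0, 0 and 10 (CYGB). The sum of its 42 transcripts was 211 ± 59.5 CPM (MOCK) against 188 ± 49.8 CPM (CYGB) (SD, n = 3 each). In MERGE.10840 the transcript MERGE.10840.13 ranged from 20 to 1640 counts, while the locus stood at 94.6 ± 6.43 CPM and 84.0 ± 15.1 CPM. MERGE.1839 stood at 56.2 ± 7.78 CPM and 58.3 ± 2.51 CPM, and MERGE.1839.1 led it in all 6 libraries. The log2 fold changes of the 3 sums were -0.17, -0.17 and 0.05, and in edgeR's quasi-likelihood test none reached an adjusted p under 0.05.

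The comparison of CYGB with MOCK addresses which RNA changed after CYGB overexpression. It was fitted on all transcripts of the table, with and without a gene, and 81498 passed the filter on low counts, among them 14889 of the 21225 without a gene (70.1%) and 66609 with one. The threshold of the study's methods was used, which asks for an unadjusted p no higher than 0.01 and for a ratio of 2 or more, or 0.5 or less. It was passed by 198 transcripts without a gene (1.33%), 115 with the higher level in CYGB-overexpressing cells and 83 with the lower, against 1.05% of all tested transcripts (0.564% higher and 0.487% lower). An unadjusted p of at most 0.01 alone was reached by 203 (1.36%), against 1.07% of all. After Benjamini-Hochberg adjustment of the p-values of edgeR's quasi-likelihood test, no transcript without a gene was under 0.05, where the lowest was 0.109. An unadjusted p under 0.05 was found for 670 (4.50%), against 3.74% of all. Over all tested transcripts 0.00614% had an adjusted p under 0.05. The number without a gene was 267 with DESeq2 and 157 with edgeR's exact test. The share of all tested transcripts under these tests is not given here, and 0.00614% is from the quasi-likelihood test alone. The median log2 fold change was 0.02, and 90% of values lay between -1.86 and 1.90.

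The groups of libraries did not overlap for 1528 of the 14889 transcripts (10.3%), against 10.4% of all tested transcripts. If group labels were shuffled at random, 3 against 3 libraries would be apart at a rate of 0.1. On simulated counts, 0.844% of unchanged transcripts, with and without a gene, passed the threshold. Whether these counts switch between 0 and high values as the data do was not checked, so this rate may not hold for the data. A fitted ratio of at least 2 either way was found for 24.5% of the 14889, against 18.7% of all tested transcripts. The typical standard error of the log2 fold change was 0.69, and 0.55 for transcripts with a gene. Of the 198 transcripts past the threshold, 64 (32.3%) were at 0 counts in all 3 libraries of a group, 45 of them in MOCK and 19 in CYGB. Transcripts at 0 in a whole group were tested only if all 3 libraries of the other group passed the filter on low counts. There were 71 of these without a gene, so this share is set in part by the filter. Among the 659 transcripts with a gene past the threshold the share was 33.2%. Transcripts alone in their locus passed in 23 of 3491 cases (0.659%), those in loci of 2 to 4 in 1.35%, of 5 to 9 in 1.72% and of 10 and more in 1.90%.

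**Figure D4:**
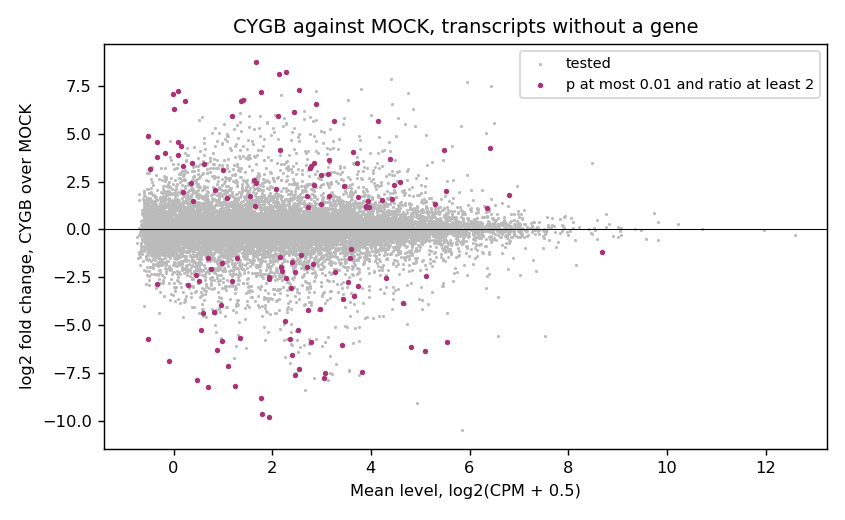
log2 fold change of CYGB over MOCK (y axis) by mean level (x axis, log2(CPM + 0.5)) for 14818 tested transcripts without a gene, with the 134 past the threshold in purple. The 71 transcripts at 0 in all libraries of a group are not drawn because their fitted fold change depends on the prior count, and the purple points lie on both sides of 0.

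Only 2 transcripts past the threshold had a mean of 100 CPM or more. They and the next were picked after their values were seen. MERGE.1215.3 had 27257, 48086 and 32078 counts (MOCK) against 11120, 13954 and 21489 (CYGB), a log2 fold change of -1.20 (SE 0.30, edgeR quasi-likelihood test, adjusted p = 0.852). It passed the threshold in 1 of 6 fits without 1 library, that without CYGB replicate 3, and the log2 fold change of its locus was -0.99, which did not pass. MERGE.16841.10 had 2797, 2740 and 3557 counts (MOCK) against 7816, 12848 and 11605 (CYGB), and its groups were far apart. Its log2 fold change was 1.83 (SE 0.24, edgeR quasi-likelihood test, adjusted p = 0.202), and that of its locus of 2 transcripts was 1.73. The next in abundance, MERGE.29336.4, had 493, 374 and 676 counts (MOCK) against 4503, 3222 and 22337 (CYGB), with CYGB replicate 3 far above the others. Its log2 fold change was 4.26, and 2.92 without that library, and it did not pass without any 1 of the MOCK libraries. The sum of the 3 transcripts of MERGE.29336 overlapped between groups, at 788, 2344 and 10083 counts (MOCK) against 15188, 3576 and 24372 (CYGB). That sum had a log2 fold change of 1.71 and did not pass.

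All 198 transcripts past the threshold had their groups apart. Of these, 72 averaged 10 CPM or more in either group, 42 higher and 30 lower in CYGB-overexpressing cells. They served to choose the transcripts named next, and the corresponding share of all tested transcripts is not given here. The 6 with the largest fitted rises had no count in any MOCK library, so their changes are lower bounds against a floor of 3 counts over the group. Transcripts without a count in MOCK and below the filter in any CYGB library were not tested. MERGE.3794.4 had 854, 3014 and 11627 counts in the CYGB libraries, at least 5167-fold higher, or 1955-fold without CYGB replicate 3. MERGE.3794.10, of the same locus, had 2197, 308 and 219 counts, at least 908-fold higher, or 263-fold without CYGB replicate 1. Neither of these passed the threshold without CYGB replicate 2. The sum of the 9 transcripts of MERGE.3794 overlapped between groups, at 11363, 8372 and 12117 counts (MOCK) against 8443, 12466 and 17989 (CYGB). MERGE.17702.10 had 4709, 2136 and 1045 counts (at least 2631-fold higher, or 1585-fold without CYGB replicate 1), and its locus sum had a log2 fold change of 0.62. MERGE.6442.8, from the locus described above, had 3598, 87 and 1979 counts (at least 1889-fold higher, or 1029-fold without CYGB replicate 1), and passed the threshold in 1 of 6 fits without 1 library, that without CYGB replicate 2. MERGE.1911.11 had 945, 1761 and 2470 counts (at least 1726-fold higher) and led its locus in the CYGB libraries. MERGE.1911.2 led in the MOCK libraries and had 939, 270 and 303 counts in CYGB, so the lead in CYGB replicate 1 was slight. The sum of MERGE.1911 was 1384, 1009 and 1191 counts (MOCK) against 2385, 2049 and 3240 (CYGB), a log2 fold change of 1.07 (edgeR quasi-likelihood test, adjusted p = 0.982).

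MERGE.9469.4 completed these rises, with 1081, 1315 and 969 counts in CYGB, at least 1122-fold higher. Its adjusted p was 0.141 by the same edgeR test. A partner in the locus, MERGE.9469.1, picked after its values were seen, went the other way, with 1118, 1252 and 1157 counts (MOCK) against 112, 123 and 45 (CYGB). Its log2 fold change was -3.64 (SE 0.48, edgeR quasi-likelihood test, adjusted p = 0.202). The 5 transcripts of the locus together had 1163, 1306 and 1232 counts (MOCK) against 1203, 1477 and 1079 (CYGB). The total of this locus had a log2 fold change of 0.01, while MERGE.9469.4 in place of MERGE.9469.1 held most of its counts in all 3 CYGB libraries.

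The 6 largest falls began with MERGE.12064.6, which had 14861, 13452 and 2545 counts in MOCK and none in CYGB, at least 10283-fold lower. Its locus sum varied within groups, from 9444 to 59677 counts in MOCK and from 6438 to 48242 in CYGB. MERGE.15328.1 had 1540, 4209 and 1755 counts in MOCK and none in CYGB (at least 2501-fold lower), with a log2 fold change of -0.94 for the sum of its 7 transcripts. MERGE.3456.3, MERGE.17129.1 and MERGE.7259.2 are each the only listed transcript without a gene of their locus and had no count in any CYGB library. Transcripts without a count in CYGB and below the filter in any MOCK library were not tested. MERGE.3456.3 had 453, 2154 and 1555 counts in MOCK (at least 1387-fold lower), and MERGE.7259.2 had 1314, 286 and 255 (at least 618-fold lower, or 264-fold without MOCK replicate 1). MERGE.17129.1 was the most even, with 575, 715 and 723 counts in MOCK, at least 671-fold lower in CYGB. MERGE.4852.12 had 2208, 328 and 255 counts (MOCK) against 4, 5 and 4 (CYGB), a log2 fold change of -7.75 (SE 1.25, edgeR quasi-likelihood test, adjusted p = 0.298), which was -6.00 without MOCK replicate 1.

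The transcripts nearest to the threshold on p were MERGE.3025.3 and MERGE.30920.7 just inside, with log2 fold changes of 2.83 and 6.70, and MERGE.29835.4 and MERGE.23914.1 just outside, with 1.28 and -3.60. MERGE.3025.3 had 75, 116 and 149 counts (MOCK) against 345, 424 and 1662 (CYGB), and MERGE.29835.4 had 153, 127 and 169 (MOCK) against 464, 272 and 361 (CYGB). MERGE.30920.7 had 0, 0 and 7 counts (MOCK) against 91, 431 and 241 (CYGB), and MERGE.23914.1 had 177, 665 and 2097 (MOCK) against 100, 72 and 68 (CYGB). Without 1 library, MERGE.3025.3 passed only when CYGB replicate 1 was left out and MERGE.30920.7 only when MOCK replicate 3 was. Their log2 fold changes were 1.79 without CYGB replicate 3 and 10.99 without MOCK replicate 3, respectively. That of MERGE.23914.1 was -2.36 without MOCK replicate 3 and -4.09 without MOCK replicate 1, where it passed.

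Most transcripts past the threshold did not carry their locus with them. Of the 198, 175 lay in loci with several transcripts, and for 24 of these (13.7%) the sum of the locus passed in the same direction, while for 47 the sum had the opposite sign. A further tested transcript of the same locus existed for 163, and in 142 (87.1%) at least 1 had a fold change of the opposite sign. Over all 10565 tested transcripts with such a partner this share was 80.9%. The corresponding counts for transcripts with a gene are not given here, so a trait particular to those without one is not shown.

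After summing, 27585 loci and genes were tested, among them 7598 of the 9332 loci without a gene (81.4%). The threshold was passed by 74 loci (0.974%), 39 higher and 35 lower in CYGB-overexpressing cells, against 0.616% of all loci and genes tested (0.323% higher and 0.294% lower). Groups did not overlap for 10.5% of the loci, against 10.9% of all. In edgeR's quasi-likelihood test, 4 loci were under 0.05 after Benjamini-Hochberg adjustment, 2 higher and 2 lower, where 0.0363% of all loci and genes reached it. The same 4 loci were among 112 with DESeq2 and 51 with edgeR's exact test, whose shares of all loci and genes are not given here. Without CYGB replicate 3 the number in edgeR's quasi-likelihood test was 0. MERGE.27610 and MERGE.6880 are named because they are among the 4, which was known only after the test.

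MERGE.26924 was the largest rise. Its 4 transcripts together had 73, 38 and 65 counts (MOCK) against 3215, 4674 and 4416 (CYGB), or 0.952 ± 0.339 and 64.9 ± 11.7 CPM (SD, n = 3 each). Every CYGB library lay far above every MOCK library. The log2 fold change was 6.09 (SE 0.37, edgeR quasi-likelihood test, adjusted p = 0.0173). The adjusted p was over 0.05 in 5 of the 6 fits without 1 library, at 0.0935 without MOCK replicate 1, 0.0826 without MOCK replicate 3, and 0.0578, 0.0655 and 0.106 without CYGB replicates 1, 2 and 3, while the log2 fold change stayed between 5.84 and 6.33. Which transcript took the counts differed between CYGB libraries. MERGE.26924.2 had 3200 of them in CYGB replicate 1, where MERGE.26924.4 had 2, and MERGE.26924.4 had 2878 and 4168 in replicates 2 and 3. The 2 of its transcripts that were tested alone did not pass the threshold.

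MERGE.6880 also rose. Its 3 transcripts had 603, 571 and 773 counts (MOCK) against 9892, 9266 and 7510 (CYGB), or 10.4 ± 1.66 and 141 ± 22.2 CPM (SD, n = 3 each). This sum had a fitted log2 fold change of 3.76 (SE 0.19, edgeR quasi-likelihood test, adjusted p = 0.00805). With MOCK replicate 1 left out its adjusted p was 0.0967, and with CYGB replicate 3 left out 0.0629. The larger part came from MERGE.6880.4, with 0, 114 and 0 counts (MOCK) against 8543, 7803 and 6258 (CYGB). MERGE.6880.1 was present in all libraries, with 603, 457 and 617 counts (MOCK) against 1349, 1267 and 1252 (CYGB).

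MERGE.27610 fell and had the lowest p of the loci. It had 8487, 9166 and 9599 counts (MOCK) against 372, 534 and 500 (CYGB), or 146 ± 4.64 and 7.41 ± 1.28 CPM (SD, n = 3 each). The log2 fold change was -4.30 (SE 0.16, edgeR quasi-likelihood test, adjusted p = 0.0051), and its adjusted p was 0.0629 without CYGB replicate 3. MERGE.27610.4 led in MOCK replicates 1 and 3 with 7777 and 7848 counts, and MERGE.27610.1 led in replicate 2 with 8138. The third transcript, MERGE.27610.11, had 138, 50 and 24 counts (MOCK) against 294, 353 and 329 (CYGB), opposite to the sum.

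MERGE.17129, the single transcript with no count in CYGB given above, had an adjusted p of 0.0279 in the fit of loci and of 0.141 in the fit of transcripts, both from edgeR's quasi-likelihood test. Its counts are the same in both fits, and it passed the filter on low counts through its MOCK libraries alone. The adjusted p in the fit of loci was over 0.05 without any 1 of the 3 MOCK libraries (0.137 to 0.191) and without CYGB replicate 3 (0.0629). The loci MERGE.3456 and MERGE.7259, the other large falls, passed the filter in the same way. They had adjusted p of 0.393 and 0.799 by edgeR's quasi-likelihood test. The remaining large rises were MERGE.13804, with 11, 21 and 32 counts (MOCK) against 1342, 42 and 1940 (CYGB), and MERGE.28027, with 4, 119 and 26 (MOCK) against 1179, 1478 and 1252 (CYGB). In edgeR's quasi-likelihood test each had an adjusted p of 0.989. Without 1 library, MERGE.13804 passed the threshold only when CYGB replicate 2 was left out. MERGE.28027 passed only when MOCK replicate 1 or 2 was, with log2 fold changes of 4.20 and 6.42 against 4.74 with all libraries. In MERGE.28027 a different transcript held the counts in each CYGB library. These were MERGE.28027.2 with 1151 in replicate 1, MERGE.28027.10 with 1470 in replicate 2 and MERGE.28027.11 with 1235 in replicate 3. Its total, similar across CYGB libraries but not across MOCK libraries, was visible only as a sum.

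**Figure D5:**
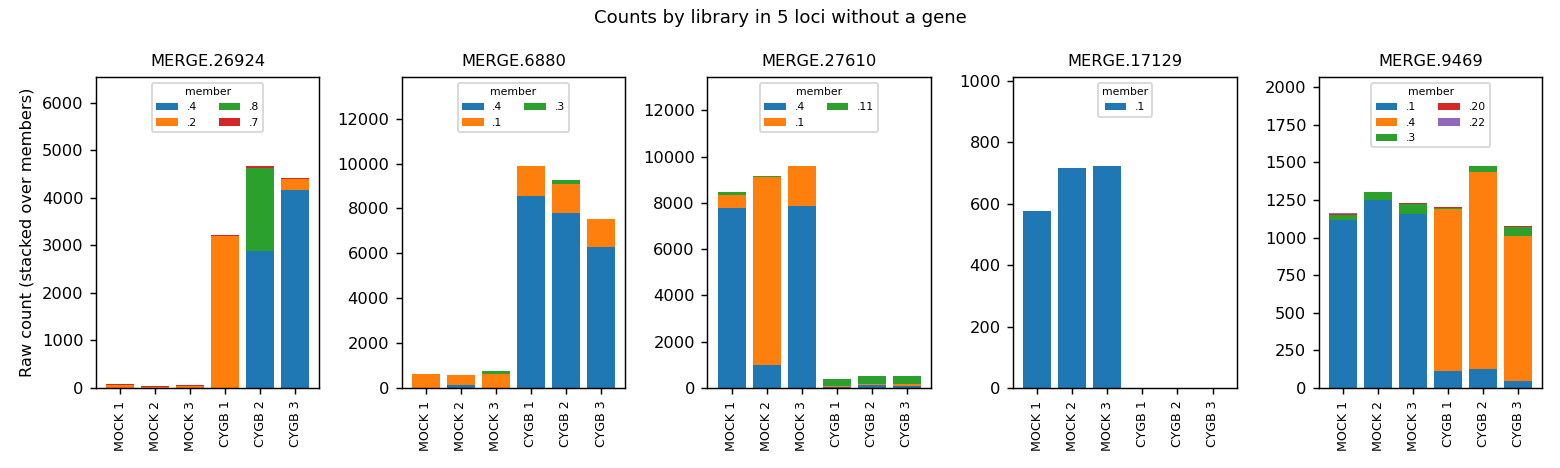
Raw counts (y axis, stacked over the transcripts of a locus, colours named by transcript number) in the 6 libraries (x axis) for the 4 loci with an adjusted p under 0.05 and for MERGE.9469. MERGE.26924 and MERGE.6880 are higher and MERGE.27610 and MERGE.17129 lower in all CYGB libraries, while the totals of MERGE.9469 overlap and its main transcript is MERGE.9469.1 in MOCK and MERGE.9469.4 in CYGB.

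These loci have no position in the table, so reads that moved between them and annotated transcripts of the same place cannot be told apart from a change in RNA.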

How the data were processed

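Raw counts, deposited in 1 table and not normalised, gave the paired-end reads of 6 libraries for each transcript. The submitters' processing notes list HISAT2, HISAT, DESeq2 and hg19 without a role. Assembler, counting tool and annotation are not given in the sources used here. GENCODE 29 lists 151393 of the annotated transcripts, 99.5% at the same GRCh38 position, but transcripts without a gene have none.

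All transcripts entered library sizes and tests. Those without a gene were kept because they are the subject. Features were kept by filterByExpr (minimum count 10), scaled by TMM and tested by the quasi-likelihood functions glmQLFit and glmQLFTest of edgeR 4.0.16 (R 4.3.3), CYGB against MOCK, without a block. P-values were adjusted over all tested features by the Benjamini-Hochberg method. Transcripts were also summed by locus number and by gene. Library summaries were compared with exact permutation tests. CPM use the TMM library sizes. SE is approximate, taken as the absolute log2 fold change divided by the square root of the F statistic of the quasi-likelihood test. Alternatives included DESeq2 1.42.0, and floors and intervals cover counting error only.

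The transcripts named were the 6 most abundant, the 6 largest fitted rises and falls past the threshold (10 CPM or more in a group, groups apart), the 4 widest ranges, 2 on either side of the threshold, and the loci with most transcripts (3) or largest changes (3 each way). Members and lists were chosen with earlier results of these data known. A check for libraries deposited more than once found none (chi-square per transcript at least 274 between replicates). Simulated counts were drawn from the count model of edgeR with its fitted spread. With 200 transcripts without a gene changed 8-fold (81498 tested), 51.5% passed the threshold and 0% had an adjusted p under 0.05 in edgeR's quasi-likelihood test. There, 686 unchanged transcripts passed. For loci (27585 tested) these were 79.5%, 40.5% and 227.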

Additional observations from a re-analysis of the deposited data

How the results depend on the processing

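Past the threshold stood 198 transcripts without a gene. DESeq2 gave 463 (3.11%, against 2.41% of all tested transcripts) and the exact test of edgeR 316 (2.12% against 1.66%). Fits without 1 library gave between 291 (1.84% against 1.38%) and 362 (2.28% against 1.70%), the most when MOCK replicate 3 was omitted. Each of these 6 smaller fits had between 126 and 134 transcripts in common with the 198. By adjusted p under 0.05 there were 0, while DESeq2 gave 267 and the exact test 157, and each other alternative run gave 0. Shares of all tested transcripts at this adjusted p are not given here for DESeq2 and the exact test.

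For loci past the threshold the number was 74. It was 191 by DESeq2 (2.51%, against 1.53% of all loci and genes tested) and 158 by the exact test (2.08% against 1.33%). Without 1 library it lay between 120 (1.53% against 0.841%) and 157 (2.00% against 1.09%), again the most without MOCK replicate 3. For loci with an adjusted p under 0.05, whose alternatives were chosen after seeing the data, the number was 4. Shares of all loci and genes at this adjusted p are not given here for the alternatives. DESeq2 gave 112, the exact test 51, and fits without 1 library between 0 (CYGB replicate 3 omitted, 462 loci with an unadjusted p under 0.05 in edgeR) and 9 (MOCK replicate 3 omitted), with 1 when MOCK replicate 1 and 7 when MOCK replicate 2 was omitted. Over 13 alternatives the adjusted p of MERGE.27610 ranged from 7.59e-117 to 0.380 and missed 0.05 in 2, that of MERGE.6880 from 1.72e-59 to 0.548 (missed in 3), that of MERGE.17129 from 4.53e-31 to 0.942 (missed in 5) and that of MERGE.26924 from 4.84e-64 to 0.756 (missed in 6). The cause was not tested. Of the values of named transcripts and loci under all alternatives, 441 kept direction and side of the threshold, 48 lost and 5 gained a call, and 11 turned direction.

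Same-numbered libraries deviated together only weakly (r = 0.044, 0.012 and 0.031 across all tested transcripts), so the numbers were not taken to pair them. With the replicate block, 105 transcripts (0.705%, against 0.443% of all tested) passed the threshold, 69 of them among the 198. So did 75 loci (0.987%, against 0.475% of all loci and genes). In this edgeR fit 0 transcripts and 0 loci had an adjusted p under 0.05, where 547 transcripts and 438 loci had an unadjusted p under 0.05.

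The log2 fold change of MERGE.22868.3, at 0.0045, became -0.0071 with a filter at a mean of 50 counts and -0.0019 with library sizes from annotated transcripts, and lay between -0.019 and 0.028 without 1 library. Without 1 library, MERGE.14580.1 lay between -0.18 and 0.056, MERGE.1839 between -0.014 and 0.17 and MERGE.10481.1 between -4.29 and 5.94. The difference in share of counts lay between -0.238 and 0.178 percentage points without 1 library. In simulated counts no transcript changed 8-fold reached an adjusted p under 0.05, so the 0 transcripts found in edgeR do not show absence of change.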
